A study of Mus musculus with 4 samples.

Results

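The proteasome is the protease that degrades ubiquitin-tagged proteins in the cytosol and nucleus, and the genes described here are its subunits, its assembly chaperones, its activators and its inhibitor. They were taken as the rows of the deposited comparison table whose gene symbol starts with Psma, Psmb, Psmc, Psmd, Psme, Psmf or Psmg followed by a digit. The rule gave 47 of the 11536 genes in that table. It used names only and no measured value. Of the 47, 46 encode proteasome proteins or their direct regulators. The remaining one, Psmc3ip, shares the prefix through its name ("Psmc3 interacting protein") and encodes a factor of meiotic recombination, so it is counted among the 47 but described apart.

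The cells were double-positive (DP) thymocytes, which carry both CD4 and CD8, sorted from C57BL/6 mice, and their RNA was sequenced. The 2 Uqcrfs1 knockout (KO) libraries came from 2 mice of genotype Uqcrfs1fl/fl; CD4-Cre+, in which Cre driven by CD4 regulatory sequence deletes the Rieske iron-sulfur protein gene of respiratory complex III from about the DP stage. The 2 control libraries are labelled WT, while the series description calls these mice heterozygous littermates, so WT is used here as the name of a group. The sources used here state neither age nor sex, nor whether the controls carried Cre. If the controls lacked Cre, the transgene and the deletion cannot be told apart.

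In the 26S proteasome a 20S core is capped by 19S regulatory particles. The core is a stack of rings of alpha subunits (Psma genes), which gate the entry, and of beta subunits (Psmb genes), of which Psmb5, Psmb6 and Psmb7 carry the proteolytic sites. Interferon and many lymphoid cells replace these by Psmb8, Psmb9 and Psmb10, giving the immunoproteasome, whose products suit peptide loading on MHC class I. The cap consists of a base with ATPases (Psmc genes) that unfold the substrate and a lid (most Psmd genes) that removes ubiquitin. Chaperones (Psmg1 to Psmg4 for the core, Psmd5, Psmd9 and Psmd10 for the base) assemble the particles and are not part of the finished enzyme. Proteasome genes are known to be kept at matched levels by the transcription factor NFE2L1, which is also called NRF1 and is a different protein from nuclear respiratory factor 1.

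Levels are given as CPM, a gene's count scaled to a common library size, with sizes adjusted by the TMM method. The libraries held 30408863 to 34080516 counts in genes, and a proteasome gene had 258 to 10869 counts in a library. Uqcrfs1, the targeted gene, was at 61.4 and 57.2 CPM in WT and 15.6 and 18.6 CPM in KO, a log2 change of -1.80 (SE 0.09, adjusted p = 1.78e-04 in edgeR's quasi-likelihood test). The sort markers Cd4 (1934 to 2092 CPM) and Cd8a (2953 to 3225 CPM) were high in every library, as was the DP thymocyte marker Rag1 (5477 to 6595 CPM). The thymic epithelial gene Psmb11, which encodes the thymoproteasome catalytic subunit, had 0 and 1 counts in the control libraries and 0 and 3 in the KO libraries, and the testis gene Psma8 had 4 and 1, and 8 and 6. Neither has a row in the comparison table. KO replicate 2 stood apart on several myeloid markers. In it Lyz2 was at 5.36 CPM (0.231 to 0.499 CPM elsewhere), Ctss at 3.25 CPM (0.792 to 1.43), Csf1r at 1.32 CPM (0.117 to 0.152), Itgax at 1.01 CPM (0.0587 to 0.132) and Adgre1 at 0.378 CPM (0.0587 to 0.0659). Itgam and Tyrobp were also highest in KO replicate 2. Not all myeloid markers went this way. Cst3 was lowest in KO replicate 2, at 50.8 CPM (56.5 to 60.6 CPM elsewhere), and Cd68 and Fcer1g lay within the range of the other libraries. All 10 myeloid markers summed to 74.5 to 80.6 CPM in each library, of which Cst3 alone made up 50.8 to 60.6 CPM. Without KO replicate 2 the median log2 change of the proteasome genes was -0.073, with 41 of 47 below 0. The 8 markers of double-negative thymocytes, the stage before DP, all had a log2 change above 0 (median 0.37, 0 called) and summed to 370 and 388 CPM in WT and 426 and 489 CPM in KO. Markers of mature T cells were above 0 for 7 of 8 genes (0 called) and summed to 239 to 245 CPM in WT and 256 to 273 CPM in KO. Their direction rested on KO replicate 2: the median log2 change was 0.28 with all libraries and -0.37 without it. B cell markers were above 0 for 4 of 4 tested genes (median 0.72, 0 called) and summed to 25.6 to 29.5 CPM, nearly all of it Cd79b (24.1 to 27.3 CPM). Thymic stroma markers summed to 149 to 163 CPM, of which Pecam1 alone made up 139 to 150 CPM. Erythroid markers summed to at most 0.221 CPM. The part of these cell types in the values below was not tested. In bulk RNA, fewer cells of a type and less RNA per cell cannot be told apart.

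Proteasome genes were slightly lower in KO than in WT as a set of values, and no single one passed the test. All 47 were tested. The log2 change was below 0 for 42 of them, against 50.1% of the 13281 genes tested, and the median was -0.061, against -0.00 over all genes. That median corresponds to a KO level of 0.958 times the WT level. The values ran from -0.41 (Psmg4) to 0.04 (Psme4). With edgeR's quasi-likelihood test and Benjamini-Hochberg adjustment over all genes, 0 of the 47 were called, where 0.0226% of all genes were. At an unadjusted p under 0.05 there were 6 of 47 (Psmb6, Psmg4, Psmd8, Psma6, Psmb7 and Psmc3), all on the lower side. Of all genes tested, 8.4% had such a p in either direction and 4.01% on the lower side. The likelihood ratio test of edgeR and the Wald test of DESeq2 also called 0 of the 47, with 4 each at an unadjusted p under 0.05, where 8.38% and 4.36% of all genes tested had such a p. All members were measured in the same 4 libraries, so 42 of 47 is a description of these libraries and not a count of independent observations.

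The intervals show how large a difference the data still allow. The standard error of the log2 change had a median of 0.06 over the 47 genes. For 45 of them the 95% confidence interval lay wholly within a 1.5-fold change in either direction. The exceptions were Psmb5 and Psmg4, whose intervals reached further. The plot of log2 changes shows the narrow spread of the other genes around a value just below 0.

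**Figure D1:**
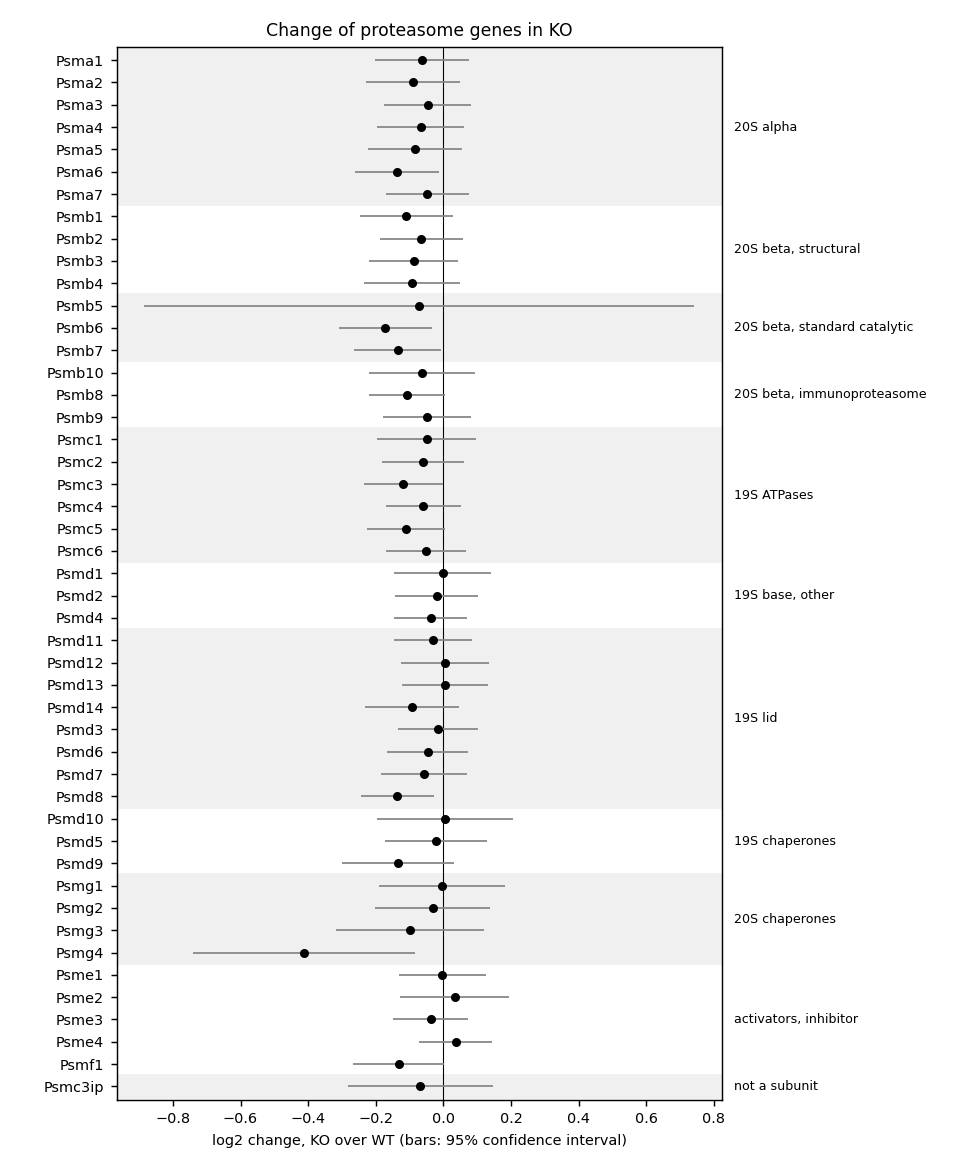
Log2 change of each of the 47 genes, KO over WT, on the horizontal axis, with the genes in rows grouped by subcomplex; points are estimates of edgeR's quasi-likelihood fit and bars are 95% confidence intervals (2 libraries per group). Of the points, 42 lie below 0, and only Psmb5 and Psmg4 have intervals that reach past 1.5-fold.

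One control library stood apart. WT replicate 1 held the highest value of the 4 libraries for 41 of the 47 genes, whereas it was highest for 30.4% of all genes tested. WT replicate 2 lay below WT replicate 1 for 43 of the 47 genes, against 49.5% of all genes, with a median log2 difference of -0.085. The gap between the 2 control mice was thus larger in the median than the gap between KO and WT. KO replicates 1 and 2 did not differ in this way (median log2 difference 0.008, with 20 of 47 lower in KO replicate 2). Relative to the mean of the 4 libraries, the median proteasome gene stood at 0.066 in WT replicate 1, -0.004 in WT replicate 2, -0.036 in KO replicate 1 and -0.033 in KO replicate 2 on the log2 scale. Both KO libraries therefore lay below both WT libraries in the median, with WT replicate 2 between.

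Both KO values lay below both WT values for 27 of the 47 genes, where 20.1% of all genes tested did so, and the opposite held for 1 gene, Psme4, where 20.4% of all genes did. Without WT replicate 1, 33 of 47 genes had a log2 change below 0, the median was -0.034, and both KO values lay below WT replicate 2 for 27 genes (35.2% of all genes tested). Without WT replicate 2, 45 genes had a log2 change below 0, the median was -0.095, and both KO values lay below WT replicate 1 for 43 genes (38.5% of all genes tested). In that reduced fit 3 genes passed the threshold (Psmb6, Psma6 and Psmg4, adjusted p = 0.0359, 0.0404 and 0.0498), where 2.65% of all genes did, with the lone WT library assumed to vary like the KO libraries.

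**Figure D2:**
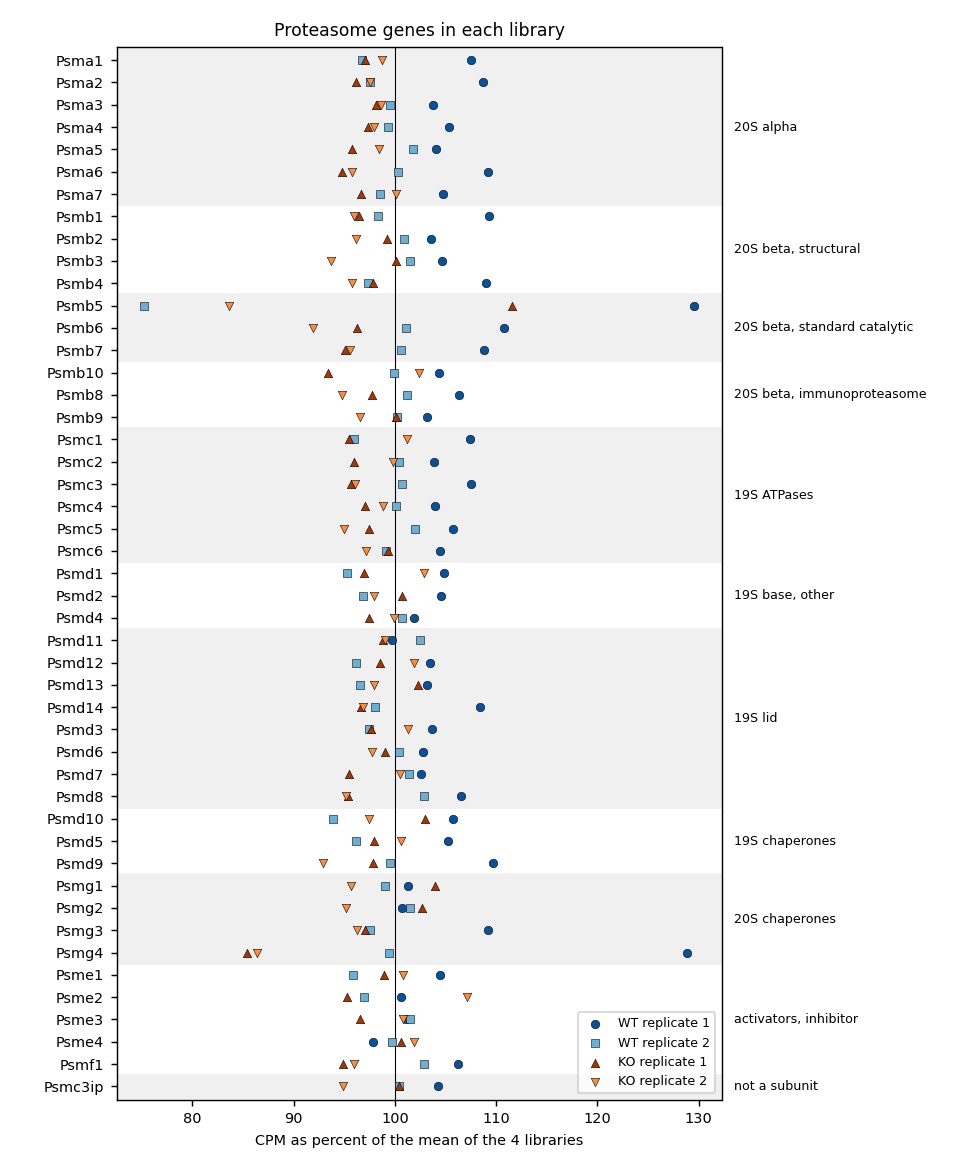
Level of each proteasome gene in each of the 4 libraries, as percent of the mean of the 4, with genes in rows grouped by subcomplex; circles and squares are WT replicates 1 and 2, triangles pointing up and down are KO replicates 1 and 2. WT replicate 1 is the rightmost point for 41 of 47 genes, and both triangles lie left of both WT points for 27.

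**Figure D3:**
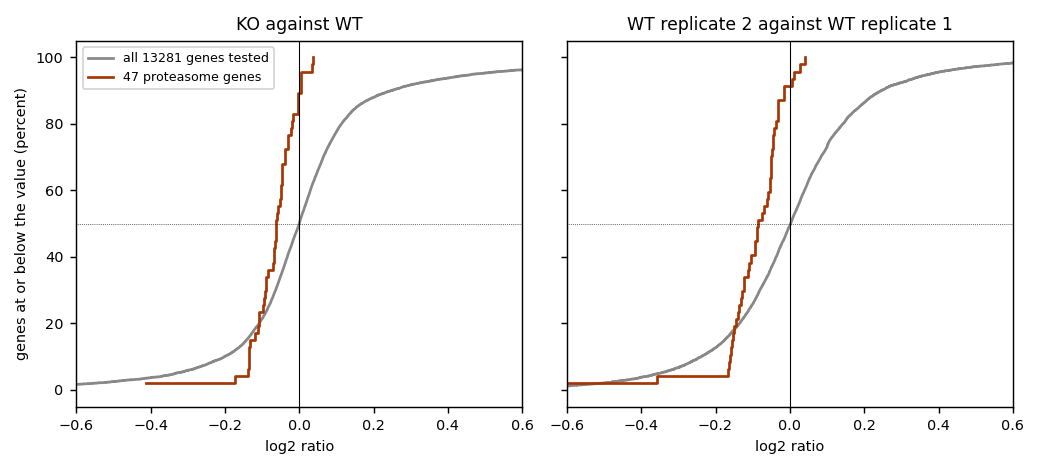
Cumulative share of genes (percent) at or below a log2 ratio, for KO against WT (left) and for WT replicate 2 against WT replicate 1 (right), with the 47 proteasome genes in brown and all 13281 genes tested in grey. The brown curves cross 50% at -0.061 and -0.085, left of the grey curves, in both comparisons.

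Promoters of the members were read to see which known elements they carry. RefSeq gives a window from 250 bases before to 50 bases after the start (GRCm38.p6, the same assembly as mm10) for 40 of the 47 genes, and the motifs were searched on both strands. Where a gene had several starts, only the first listed was used. Psmb1, Psmb2, Psmb7, Psmc3, Psmd3, Psmd7 and Psmg2 had no window used here. The antioxidant response element core bound by NFE2L1 and NFE2L2 (TGACNNNGC) was found in 6 of 40 windows (15.0%), against 12.5% of the 27025 windows of all genes. The letters of a nuclear respiratory factor 1 site (GCGCA, any 1 base, GCGC) were found in 7 of 40 (17.5% against 4.78%), namely those of Psma2, Psma3, Psma4, Psmc4, Psmc5, Psmd14 and Psmg1. An interferon-stimulated response element (GAAA, any 2 bases, GAAA) was found in 5 of 40 (12.5% against 3.49%), those of Psmb3, Psmd4, Psmd9, Psme1 and Psmg4, and a gamma-activated site (TTCNNNGAA) in 3 of 40 (7.5% against 8.47%). A CCAAT box (CCAAT) was found in 14 of 40 (35.0% against 37.9%) and a TATA box (TATAAA) in 4 of 40 (10.0% against 14.2%). A match of letters is a description of the window and not a bound site.

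The 250 bases before the start are shown for 5 members, 5′ to 3′ on the strand of the gene: the standard catalytic genes Psmb5 and Psmb6 with the antioxidant response element core in capitals, the immunoproteasome genes Psmb8 with its gamma-activated site and Psmb9 with its CCAAT box (on the opposite strand) in capitals, and the alpha subunit gene Psma4 with the nuclear respiratory factor 1 letters in capitals. They stand at chr14:54617996-54618245 (minus strand), chr11:70525107-70525356 (plus), chr17:34197945-34198194 (plus), chr17:34187331-34187580 (minus) and chr9:54950609-54950858 (plus) in that order.
Psmb5: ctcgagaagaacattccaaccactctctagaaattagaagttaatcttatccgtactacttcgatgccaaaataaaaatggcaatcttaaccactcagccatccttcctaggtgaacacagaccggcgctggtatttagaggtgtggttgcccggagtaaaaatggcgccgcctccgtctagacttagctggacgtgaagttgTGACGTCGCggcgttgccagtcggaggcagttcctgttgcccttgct
Psmb6: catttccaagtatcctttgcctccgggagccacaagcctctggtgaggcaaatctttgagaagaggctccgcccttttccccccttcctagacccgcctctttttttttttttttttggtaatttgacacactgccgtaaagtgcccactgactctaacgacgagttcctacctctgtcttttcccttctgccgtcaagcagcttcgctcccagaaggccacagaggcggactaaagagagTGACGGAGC
Psmb8: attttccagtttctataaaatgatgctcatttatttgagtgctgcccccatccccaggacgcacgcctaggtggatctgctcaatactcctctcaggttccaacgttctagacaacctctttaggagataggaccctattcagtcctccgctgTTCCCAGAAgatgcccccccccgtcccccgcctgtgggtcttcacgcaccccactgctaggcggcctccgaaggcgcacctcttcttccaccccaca
Psmb9: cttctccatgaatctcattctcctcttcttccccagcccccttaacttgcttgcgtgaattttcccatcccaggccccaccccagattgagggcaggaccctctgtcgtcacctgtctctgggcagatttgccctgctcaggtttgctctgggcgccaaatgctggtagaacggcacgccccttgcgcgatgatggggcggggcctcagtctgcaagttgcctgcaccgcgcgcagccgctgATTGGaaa
Psma4: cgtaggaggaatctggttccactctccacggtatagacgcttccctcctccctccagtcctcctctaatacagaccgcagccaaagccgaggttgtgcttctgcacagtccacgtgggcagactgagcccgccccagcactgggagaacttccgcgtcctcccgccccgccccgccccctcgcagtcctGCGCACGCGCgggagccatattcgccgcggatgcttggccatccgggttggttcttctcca
The core element of Psmb5 starts 47 bases before the RefSeq start used and that of Psmb6 9 bases before it. The site of Psmb8 starts 97 bases before the RefSeq start used and that of Psma4 61 bases before it. For Psmb8 and Psmb9 the bases shown lie inside the gene as annotated for the counts. Those genes begin farther upstream, at 34197721 and 34187764. The Psma4 gene begins at 54950790, within the bases shown and before its marked site. These stretches are thus not all upstream of the gene.

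All 7 alpha ring genes, whose products form the gated outer rings, had a log2 change below 0, with a median of -0.068 and a range of -0.14 to -0.05. Psma6 was the most abundant, at 205 and 188 CPM in WT and 177.8 and 179.5 CPM in KO. Its groups did not overlap (log2 change -0.14, SE 0.05, adjusted p = 0.564). Psma2 was at 126 and 113 CPM in WT and 112 and 113 CPM in KO. Only WT replicate 1 stood apart for this gene, and the KO values overlapped WT replicate 2 (-0.09, SE 0.06, adjusted p = 0.696). Psma5 was at 43.3 and 42.4 CPM in WT and 39.9 and 40.9 CPM in KO, with both KO values below both WT values (-0.08, SE 0.06, adjusted p = 0.717). WT replicate 1 held the highest value for all 7 genes. Without it the median of the ring was -0.02, and without WT replicate 2 it was -0.11. Psma6 lies on chromosome 12 from 55384222 to 55418454 on the plus strand, in mm10 as in the files.

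The 4 structural beta genes, Psmb1 to Psmb4, had log2 changes of -0.11 to -0.07 and a median of -0.090. Psmb1 was at 134 and 121 CPM in WT and 118 and 118 CPM in KO. Psmb4 was at 130.02 and 116 CPM in WT and 117 and 114 CPM in KO, so that KO replicate 1 lay above WT replicate 2. Psmb3 was at 72.5 and 70.2 CPM in WT and 69.4 and 64.9 CPM in KO. The adjusted p values were 0.653, 0.696 and 0.696 for Psmb1, Psmb4 and Psmb3 in the quasi-likelihood test, and Psmb2 was at -0.07 (SE 0.05).

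The standard catalytic genes had the lowest median of any subcomplex, at -0.14 over 3 genes. Psmb6, which encodes the caspase-like subunit beta 1, was at 121 and 110.1 CPM in WT and 105 and 100.1 CPM in KO. Both KO values lay below both WT values. The group means of 115 ± 7.41 and 102 ± 3.31 CPM (SD, n = 2) gave a value of -0.17 on the log2 scale (SE 0.06, 95% interval -0.31 to -0.04) with the smallest p of the 47, which missed the threshold after adjustment (adjusted p = 0.540). Leaving out each library in turn gave -0.24 to -0.11. Psmb7, which encodes the trypsin-like subunit beta 2, was at 107 and 98.8 CPM in WT and 93.4 and 93.9 CPM in KO (-0.14, SE 0.06, adjusted p = 0.573). Its groups did not overlap either. Psmb6 lies on chromosome 11 from 70525367 to 70527858 (plus strand) and Psmb7 on chromosome 2 from 38588036 to 38644087 (minus strand).

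Psmb5, the gene of the chymotrypsin-like subunit beta 5, behaved unlike the other members. It was at 26.9 and 15.6 CPM in WT and 23.1 and 17.3 CPM in KO. The groups overlapped fully, and the WT libraries differed 1.72-fold, where no other member differed by more than 1.30-fold between them. The log2 change was -0.07 with an SE of 0.30 (95% interval -0.88 to 0.74, adjusted p = 0.961), and it was 0.37 without WT replicate 1. The annotated pseudogene Gm3375 matches 796 bases of the Psmb5 transcript at 98.9% identity, and 88.4% of the transcript lies in such matches. Reads that align to more than one place were left out of the counts, so the level of Psmb5 is uncertain, and the part of the pseudogene in its spread was not tested. The microRNA gene Mir686 also lies within 109 of its exonic bases on the same strand. The gene is on chromosome 14 from 54614120 to 54617995, minus strand.

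The immunoproteasome catalytic genes were present at substantial levels and also had log2 changes below 0, with a median of -0.063 over 3 genes. Psmb8, which encodes beta 5i and replaces Psmb5, had the highest CPM of all members. It was at 331 and 315 CPM in WT and 305 and 295 CPM in KO, with both KO values below both WT values. The means were 323 ± 11.2 and 299.8 ± 6.68 CPM (SD, n = 2; log2 change -0.11, SE 0.05, adjusted p = 0.605). Psmb9, which encodes beta 1i, was at 59.2 and 57.5 CPM in WT and 57.5 and 55.4 CPM in KO. KO replicate 1 lay only just below WT replicate 2, at 57.47 against 57.50 CPM (-0.05, SE 0.06, adjusted p = 0.832). Psmb10, which encodes beta 2i, was at 45.5 and 43.5 CPM in WT and 40.7 and 44.6 CPM in KO, and its groups overlapped (-0.06, SE 0.07, adjusted p = 0.817). Psmb8 and Psmb9 are neighbours in the MHC region of chromosome 17, on opposite strands with 9956 bases between them, and Psmb9 shares 212 exonic bases with Tap1 on the other strand. Psmb8 shares 498 with the antisense gene Gm20496. The sources used here do not state the strand setting of the counts, so these counts are uncertain to that extent.

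The balance between inducible and standard catalytic genes was read from levels per length, as the share of the inducible gene in each pair. With the union of annotated exons as length, Psmb8 made up 76.6% and 84.3% of Psmb8 plus Psmb5 in WT and 77.8% and 81.9% in KO, with the low and uncertain Psmb5 in the denominator. Psmb9 made up 20.1% and 21.1% of Psmb9 plus Psmb6 in WT and 21.9% and 22.1% in KO. Psmb10 made up 46.0% and 46.9% of Psmb10 plus Psmb7 in WT and 46.6% and 48.8% in KO. In this pair the exon union exceeds the length deposited with the counts. It is 3421 against 1771 bases for Psmb7 and 1705 against 1270 for Psmb10. The level of Psmb7 per length may thus be too low, and the share of Psmb10 too high. The shares of Psmb9 in KO lay above those in WT without overlap, by 1.41 percentage points in the mean, and those of the other pairs overlapped between the groups. No test is given for these shares. With 2 libraries a group, an exact permutation test cannot give a p below 0.333. The values depend on the length used. With the APPRIS principal transcript, a choice added after the data were seen, the means over the 4 libraries were 89.3% for Psmb8, 23.8% for Psmb9 and 28.2% for Psmb10.

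Interferon induces both these genes and the activator genes Psme1 and Psme2, and the interferon-stimulated genes differed between the WT libraries in the other direction from the proteasome. Of 22 such genes tested, 19 were higher in WT replicate 2 than in WT replicate 1, with a median log2 difference of 0.57, and 17 of them were lowest in WT replicate 1. They summed to 718 and 843 CPM in the control libraries and to 777 and 794 CPM in the KO libraries. Irf7, a factor of the interferon response named after its values were seen, was at 11.8 and 19.7 CPM in WT against 14.3 and 17.8 CPM in KO. The other 3 of the 22, Irf1, Ifit2 and Gbp3, were lower in WT replicate 2 than in WT replicate 1. Irf1 was at 66.9 and 59.1 CPM in WT against 61.7 and 66.9 CPM in KO. Psmb8, Psmb9, Psmb10, Psme1 and Psme2 were all lower in WT replicate 2 than in WT replicate 1. The part of the interferon-stimulated genes in the differences between libraries was not tested.

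**Figure D4:**
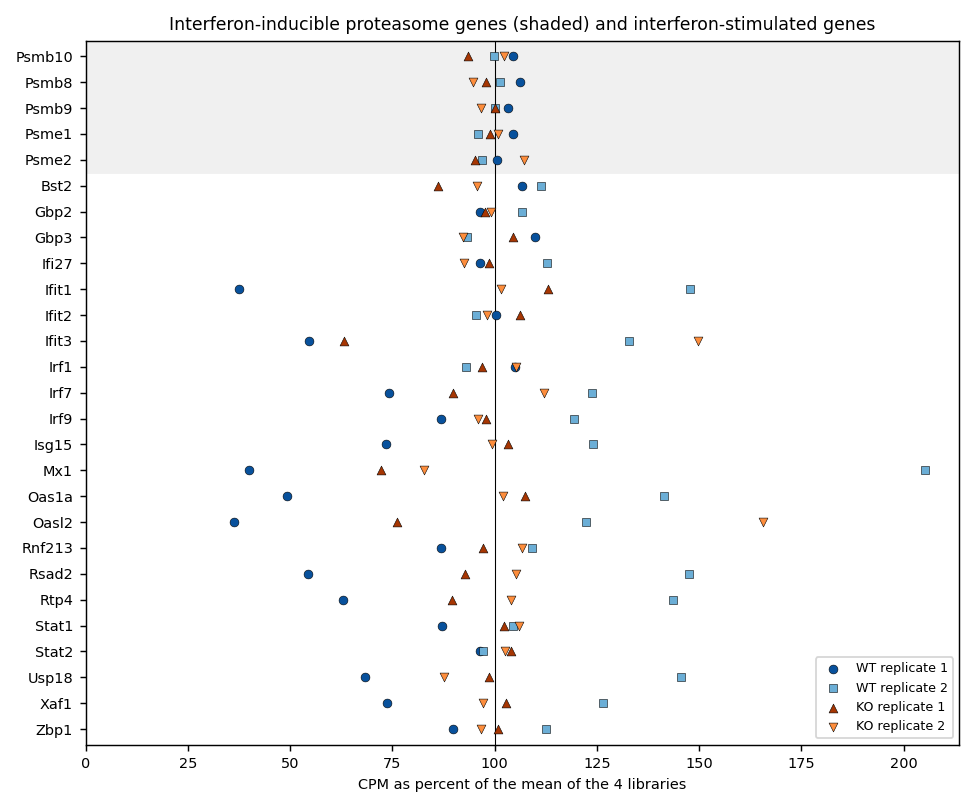
Level of 5 interferon-inducible proteasome genes (shaded rows) and 22 interferon-stimulated genes in each library, as percent of the mean of the 4 libraries; circles and squares are WT replicates 1 and 2, triangles pointing up and down are KO replicates 1 and 2. For most interferon-stimulated genes WT replicate 1 lies left and WT replicate 2 right of 100%, while the 5 proteasome genes lie close to 100% with WT replicate 1 rightmost for all but Psme2.

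The 6 ATPase genes of the 19S base, Psmc1 to Psmc6, all had log2 changes below 0, with a median of -0.060 and a range of -0.12 to -0.05. Psmc3 was at 201 and 189 CPM in WT and 179.4 and 180.1 CPM in KO, and the groups did not overlap. Its log2 change was -0.12 (SE 0.05, adjusted p = 0.589). Psmc5 was at 117 and 113 CPM in WT and 108 and 105 CPM in KO, again without overlap (-0.11, SE 0.05, adjusted p = 0.615). Psmc4 was at 168 and 162 CPM in WT and 157 and 160.2 CPM in KO (-0.06, SE 0.05, adjusted p = 0.755). Psmc1, which has 2 near-identical pseudogenes, was at 143 and 128 CPM in WT and 127 and 135 CPM in KO, and its groups overlapped. Psmc3 shares 215 exonic bases with Slc39a13 on the opposite strand.

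The other base genes had log2 changes close to 0. Psmd2, a scaffold that holds ubiquitin receptors, was at 206 and 191 CPM in WT and 198 and 193 CPM in KO (log2 change -0.02, SE 0.05, 95% interval -0.14 to 0.10, adjusted p = 0.934). Psmd1, the other scaffold, was at 94.3 and 85.6 CPM in WT and 87.2 and 92.5 CPM in KO, with KO values inside the range of WT. The ubiquitin receptor gene Psmd4 was at 156 and 154 CPM in WT and 149 and 153 CPM in KO (-0.04, SE 0.05, adjusted p = 0.842). Without WT replicate 1 the median of these 3 genes changed sign, from -0.020 to 0.032.

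In the lid, 6 of 8 genes had a log2 change below 0, with a median of -0.039. Psmd8, a lid subunit, was at 189 and 182 CPM in WT and 168.98 and 168.76 CPM in KO. The means were 186 ± 4.63 and 169 ± 0.154 CPM (SD, n = 2), and the log2 change was -0.14 (SE 0.05, 95% interval -0.25 to -0.03, adjusted p = 0.541). It ranged from -0.17 to -0.11 when each library was left out in turn. Psmd14, the deubiquitinase of the lid, was at 92.5 and 83.7 CPM in WT and 82.4 and 82.6 CPM in KO (-0.09, SE 0.06, adjusted p = 0.695). Psmd7, its inactive partner, was at 65.9 and 65.1 CPM in WT and 61.3 and 64.5 CPM in KO (-0.06, SE 0.06, adjusted p = 0.799). Psmd3, the most abundant lid gene by CPM, was at 253 and 238 CPM in WT and 238 and 248 CPM in KO and overlapped between the groups. Psmd12 and Psmd13 were at 0.00 (SE 0.06 each). Psmd13 shares 342 exonic bases with Sirt3 on the opposite strand.

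Of the 7 assembly chaperone genes, Psmg4 had the largest log2 change of all members, at one of the lowest levels. It was at 12.1 and 9.35 CPM in WT and 8.04 and 8.13 CPM in KO. Both KO values lay below both WT values, and the WT libraries differed from each other more than WT replicate 2 differed from KO. The group means of 10.7 ± 1.96 and 8.09 ± 0.0665 CPM (SD, n = 2) gave -0.41 on the log2 scale (SE 0.14, 95% interval -0.74 to -0.08, adjusted p = 0.541), and the value ran from -0.59 without WT replicate 2 to -0.21 without WT replicate 1. Psmg3, its partner in assembly of the alpha ring, was at 17.7 and 15.8 CPM in WT and 15.8 and 15.6 CPM in KO (-0.10, SE 0.10, adjusted p = 0.799). Psmg1 and Psmg2, which act together as a second chaperone pair, were at -0.004 and -0.03 (SE 0.08 and 0.07). Of the base chaperones, Psmd9 was at 42.1 and 38.2 CPM in WT and 37.6 and 35.7 CPM in KO (-0.13, SE 0.07, adjusted p = 0.647), and shares 1849 exonic bases with Gm26745 on the other strand. Psmd5 was at -0.02 (SE 0.07) and Psmd10, also known as gankyrin, at 0.00 (SE 0.09).

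The 5 genes of activators and the inhibitor had the median nearest to 0 of the subcomplexes, at -0.004. Psme1 and Psme2 encode the interferon-inducible activator PA28 alpha and beta and are neighbours on chromosome 14, on opposite strands with 5911 bases between them. Psme1 was at 127 and 117 CPM in WT and 121 and 123 CPM in KO, with both KO values inside the range of WT (log2 change -0.004, SE 0.06, 95% interval -0.13 to 0.13, adjusted p = 0.993). Psme2 was at 50.5 and 48.7 CPM in WT and 47.8 and 53.8 CPM in KO (0.03, SE 0.07, adjusted p = 0.915). Its copy Psme2b, which had 19 to 29 counts per library, matches 794 bases of Psme2 at 99.4% identity, so the level of Psme2 is uncertain. Psme4, the gene of the nuclear activator PA200, was at 143 and 146 CPM in WT and 147 and 149 CPM in KO. It was the only member with both KO values above both WT values, by a log2 change of 0.04 (SE 0.05, adjusted p = 0.850). Psme3, the gene of the nuclear activator PA28 gamma, was at 160.3 and 160.8 CPM in WT and 153 and 159.7 CPM in KO (-0.04, SE 0.05, adjusted p = 0.848).
Psmf1, which encodes the regulator PI31, was at 49.0 and 47.4 CPM in WT and 43.7 and 44.2 CPM in KO. The groups did not overlap, and the log2 change of -0.13 (SE 0.06, adjusted p = 0.602) stayed within -0.16 to -0.11 when each library was left out. Psmc3ip, the gene that shares only the prefix, was at 15.4 and 14.8 CPM in WT and 14.8 and 14.0 CPM in KO (-0.07, SE 0.09, adjusted p = 0.859). It differed from the median of the proteasome genes by less than its standard error.

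Levels per length described how evenly the subunits were expressed, as CPM per kilobase averaged over the 4 libraries. With the union of annotated exons, Psma6 was highest (152), followed by Psmb8 (92.1), Psmc5 (79.7), Psmc4 (74.9) and Psmc3 (71.9). Psmd9 (5.30), Psmg3 (5.61), Psmd5 (6.50) and Psmf1 (7.15) were lowest, and all of these encode chaperones or a regulator. The union exceeds the length deposited with the counts for Psmd9 (7248 against 5231 bases) and Psmd5 (7230 against 6404). It is the shorter of the 2 for Psmg3 (2893 against 4017) and Psmf1 (6441 against 14805). Psma2 (3673 against 944) and Psmb1 (4595 against 1036) also have the longer union. Where the union is longer, the level per length may be too low. The deposited length is itself not always a length of exons. For Psmg3 it exceeds the whole stretch of chromosome 5 that the gene spans, from 139823592 to 139826885. The same held for Psme1 and Psme2, among others. With the principal transcript the order changed, with Psmb8 (191) above Psma6 (180.0), and with Psmd5 (10.7), Psmf1 (12.1), Psmd9 (14.8) and Psmd10 (16.4) lowest among the proteasome genes. Within the alpha ring, whose subunits stand in equal numbers in the particle, the level with the principal transcript ran from 20.4 (Psma3) to 180.0 (Psma6). Psma3, Psma4 and Psma5 have pseudogenes of at least 95% identity, as do Psmb3, Psmb5, Psmc1, Psmd2 and Psmd11, and Psme2 has the copy named above. The 38 genes without such a copy had a median log2 change of -0.062, with 34 below 0.

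**Figure D5:**
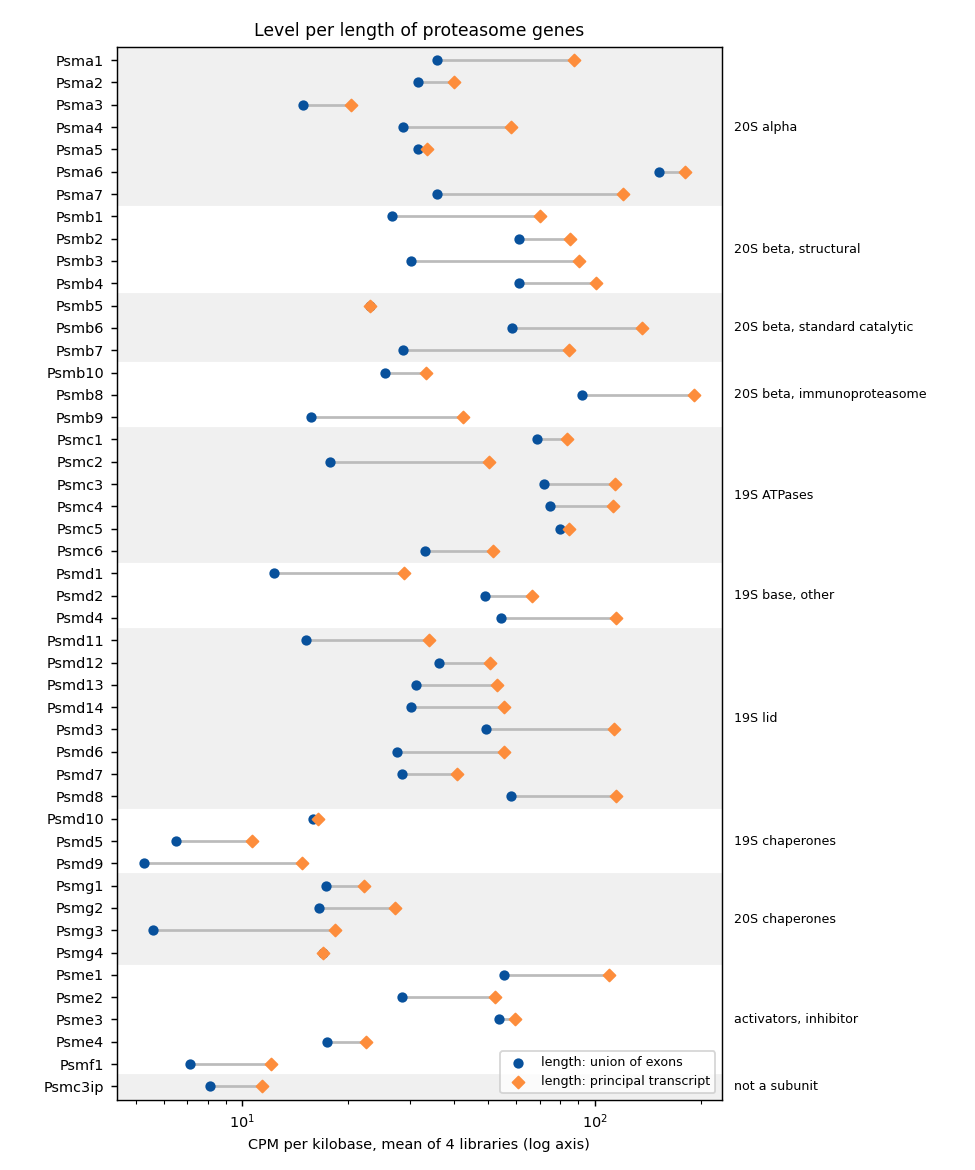
Level of each proteasome gene in CPM per kilobase on a log axis, as the mean of the 4 libraries, with the union of annotated exons (circles) or the principal transcript (diamonds) as length and genes in rows grouped by subcomplex. Psma6 and Psmb8 are highest with either length, and the assembly chaperones lie mostly below the subunits.

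Other genes of the pathway gave a mixed picture. Of the ubiquitin and E1 genes, 5 of 6 had a log2 change below 0 and 0 were called. The polyubiquitin gene Ubb was at 302 and 275 CPM in WT and 252 and 245 CPM in KO. Both KO values lay below both WT values (log2 change -0.21, SE 0.06, adjusted p = 0.462). Its log2 change was farther from 0 than that of any proteasome gene other than Psmg4, and WT replicate 1 was highest. Uba6, the gene of the second ubiquitin E1 enzyme, was at 27.4 and 30.5 CPM in WT and 33.6 and 32.4 CPM in KO (0.19, SE 0.08, adjusted p = 0.571).

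Among 20 genes of other proteasome-associated proteins, 13 had a log2 change below 0, with a median of -0.017 and 0 called. Ecpas, whose product binds 26S particles, was at 122 and 118 CPM in WT and 126 and 134 CPM in KO (0.11, SE 0.05, adjusted p = 0.618). The maturation factor gene Pomp was at -0.05 (SE 0.06). Of 7 tested genes of the NFE2L1 route, 3 were below 0 and 0 were called. Nfe2l1 itself was at 81.5 and 85.1 CPM in WT and 78.6 and 78.7 CPM in KO (-0.08, SE 0.05, adjusted p = 0.692), and its partner gene Mafg was at 0.08 (SE 0.06, adjusted p = 0.729). Of 11 genes of MHC class I peptide loading, 5 were below 0 and 0 were called. Tap2, a subunit of the peptide transporter that is encoded beside Psmb8, was at 435 and 397 CPM in WT and 378 and 362 CPM in KO (-0.17, SE 0.06, adjusted p = 0.526), while Tapbp was at -0.08 (SE 0.05, adjusted p = 0.692). Of the 22 interferon-stimulated genes, 10 were below 0 and 0 were called, with Bst2 at -0.26 (SE 0.08, adjusted p = 0.508) and Stat2 at 0.10 (SE 0.05, adjusted p = 0.631).

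In the authors' deposited table, 0 of the 47 genes were marked as higher or lower, while 27 and 19 of the 11536 genes were. The authors' deposited table gave 42 of the 47 a log2 fold change below 0 (51.6% of its genes in all) and 4 an unadjusted p under 0.05 (7.98% of its genes in all), and its smallest adjusted p among them was 0.421.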

How the data were processed

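RNA of sorted DP thymocytes from 2 KO and 2 control mice was sequenced after an Illumina TruSeq preparation, per the labels' protocols. Reads were processed with Trimmomatic 0.33, STAR 2.5.2 (mm10), HTSeq and edgeR, per the submitters' processing notes. Counts per gene are as deposited by the authors, and the sources used here state neither strand setting, counting mode nor annotation release. The authors' deposited comparison table holds CPM, log2 fold changes, a likelihood ratio score, p-values and adjusted p-values. It has the 11536 genes that reach 1 CPM in at least 2 libraries. Summary lines without a gene did not enter library sizes. Reads in no gene equalled 17.2% to 20.6%, and ambiguous reads 0.865% to 0.891%, of the reads in genes, in no gene and ambiguous together. Reads with several alignments equalled 23.2% to 24.7% of that sum with themselves added.

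The counts were tested with edgeR 4.0.16 (limma 3.58.1, R 4.3.3): filterByExpr with a minimum count of 10 and a total of 15 (13281 genes), TMM, robust quasi-likelihood fit with no covariate beside group, and Benjamini-Hochberg adjustment over all genes with a threshold of 0.05. Intervals are 95% intervals of the fit. The standard error is derived from the F statistic. On simulated data for KO against WT with 13091 genes, the script found 18 of the 50 genes set to a 1.25-fold change, 40 of 50 at 1.5-fold, 42 of 50 at 2-fold and 49 of 50 at 4-fold, with 10 false among 159 calls. The simulation gave all genes the same dispersion (biological coefficient of variation 0.058), without differences in dispersion between genes. The deposited counts gave 3 calls among 13281 genes, and whether these detection rates hold for them was not tested. Nothing states how animals were matched. The p-values and intervals rest on the spread between these 2 libraries a group, moderated toward that of all genes (median prior degrees of freedom 6.78). Levels per length used GENCODE M21 exon unions, and promoters came from RefSeq. Near-identical copies are other annotated genes matching at 95% or more over at least 200 bases.

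Alternatives were DESeq2 size factors, DESeq2 1.42.0, the likelihood ratio test, other filters, a replicate block, each library left out, and other lengths. The members and lists were chosen with earlier results of these data known. Genes named are the targeted gene, the catalytic, activator and inhibitor genes, the 3 members of each subcomplex and the 2 genes of each other list with the smallest unadjusted p, and genes a sentence needed, which were chosen after their values were seen. Some genes that this rule names are not reported here. No sample was left out.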

Additional observations from a re-analysis of the deposited data

How the results depend on the processing

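The median log2 change of the 47 genes stayed below 0 under every alternative run, from -0.095 without WT replicate 2 to -0.034 without WT replicate 1. The number of proteasome genes called ran from 0 to 3 without a library, and was 0 under the other alternatives. Over all genes the 3 calls became 191 without a filter, 101 with the likelihood ratio test, 24 with DESeq2, 27 with the replicate block and 41 to 365 without a library. The cause of these differences in the number of calls was not tested. Over all genes tested, the deviations of same-numbered libraries had a correlation of 0.075. With 2 libraries a group, that value cannot show whether the animals were matched. Members with every remaining KO value below every remaining WT value numbered 27 to 43 without a library. Of all genes tested, 32.8% to 38.5% met this easier condition, against 20.1% with all 4 libraries. Subcomplex medians without a library ran from -0.114 to -0.020 (alpha ring), -0.145 to -0.042 (structural beta), -0.240 to -0.081 (standard catalytic), -0.098 to -0.035 (immunoproteasome catalytic), -0.113 to -0.038 (ATPases), -0.075 to 0.032 (other base genes), -0.066 to -0.029 (lid), -0.089 to 0.041 (base chaperones), -0.106 to -0.029 (core chaperones) and -0.054 to 0.018 (activators and inhibitor). Of the 37 genes followed singly, 10 took either sign without a library: Psmb5 -0.41 to 0.37, Psmb10 -0.13 to 0.00051, Psme1 -0.069 to 0.056, Psme2 -0.054 to 0.11, Psmd2 -0.079 to 0.032, Psmd1 -0.075 to 0.065, Psmd5 -0.089 to 0.041, Psmd10 -0.082 to 0.089, Psmg2 -0.090 to 0.020 and Psmg1 -0.068 to 0.053. Psmd10 was at -1.57e-05 without a filter. Outside those 37 genes, Psma1 (-0.141 to 0.012), Psmc1 (-0.132 to 0.030) and Psmd3 (-0.064 to 0.026) also took either sign without a library. So did Psmd12 (-0.051 to 0.054) and Psmd13 (-0.047 to 0.048). The shares of Psmb8, Psmb9 and Psmb10, which were 80.1%, 21.3% and 47.1%, became 87.7%, 15.0% and 49.1% with the longest transcript, 93.8%, 34.6% and 30.7% from raw counts, and 89.3%, 23.8% and 28.2% with the principal transcript. Precision rests on 2 libraries a group, and the effect of depth was not tested.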
